A study of Homo sapiens with 12 samples.

Results

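WNT4 and 9 other genes of the Wnt pathway were followed across 4 groups of NCM460 cells, an established human cell line described by its labels as normal colonic epithelium. The 10 genes, among 58735 in the table, were taken by name: the ligands WNT4, WNT5A, WNT5B, WNT7A, WNT7B and WNT10A, the receptor LGR4, the antagonist DKK1, and AXIN2 and LEF1, genes of the pathway's intracellular part that are also used as readouts of it. The set was chosen by the FPKM of WNT4, which was higher in each group than in the one before in the order medium, TNFa, Bufotenidine and si, so the levels of WNT4 are described below without a test. The other 9 genes were named with earlier results of the same libraries known. Each group holds 3 libraries of poly(A)-selected RNA. Medium is wild type and untreated, TNFa is wild type with the inflammatory cytokine TNF-α, Bufotenidine is wild type with TNF-α and bufotenidine (an indole compound that the study calls 5-OH-TMT), and si received TNF-α with the mitochondrial protease HTRA2 knocked down by siRNA. The 3 groups other than medium thus share TNF-α. The dose and duration of TNF-α for these libraries are not given in the sources used here. The study's methods list 3 siRNAs against HTRA2 without saying which of them the si libraries received. A figure legend of the study sets si-HTRA2 cells against si-CTRL cells, but the labels do not say whether the TNFa libraries received a control siRNA. If they did not, transfection and knockdown cannot be told apart in comparisons with si.

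Wnt proteins are secreted lipid-modified ligands that bind Frizzled receptors together with LRP co-receptors or with other receptor kinases. In the canonical branch, binding stops the destruction complex of AXIN, APC and GSK3 from degrading β-catenin, which then acts with TCF and LEF factors in the nucleus on target genes, AXIN2 and LGR5 among them. In the colon this signal maintains the stem cells at the base of the crypt, and R-spondins strengthen it through LGR receptors by removing the ubiquitin ligases RNF43 and ZNRF3 from the cell surface. WNT4 and WNT5A are best known for signalling without β-catenin, although WNT4 has been tied to both branches.

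The libraries held between 31008429 and 37624399 reads on genes, and 3 reads on a transcript of 1 kb corresponded to an FPKM (a read count scaled by gene length and library depth) of 0.0805 to 0.0962. HTRA2 itself measured 7.28 ± 0.137 FPKM (SD, n = 3) in si and 14.5 ± 0.774 FPKM in TNFa, lower by a log2 value of -0.98 (limma, adjusted p = 2.77e-05). Within the si group, replicate 2 stood apart from replicates 1 and 3. Its read counts gave chi-squared values of 31.4 and 40.8 per degree of freedom against theirs (6.87 between those 2). It had 2.95% of its reads on mitochondrial genes, beside 3.69% to 4.68% in the other libraries. To a lesser degree, medium replicate 2 gave 17.0 and 24.4 against replicates 1 and 3 (9.26 between those 2). For TNFa replicate 3 the values were 12.7 and 17.5 (8.75 between replicates 1 and 2). Of the 9 markers of colonic epithelium examined, 5 had a mean of at least 1 FPKM, among them EPCAM (66.6) and CDH1 (66.8), whereas KRT20, VIL1 and CDX1 had at most 2 reads in any library and CDX2 was listed at 0 in all 12. KRT5, KRT14 and TP63, which mark stratified or basal epithelium, were present at 139, 36.7 and 11.7 FPKM on average. Thus KRT20, VIL1, CDX1 and CDX2 were at or near 0 while markers of stratified or basal epithelium were present. These levels go against the colonic name, which is kept here only as the label. Because the samples are bulk RNA, fewer cells of a type and less RNA per cell cannot be told apart. Nothing in the labels says that the 3 libraries of a group came from separate cultures, so p-values measure the spread between these libraries, which may be technical.

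The sequence before the start of WNT4 is shown because this gene defined the set, and those of WNT7A and WNT10A because they are the other members with the same motif. WNT4 lies on the minus strand of chromosome 1, from 22117305 to 22143969 (GRCh38). The 250 bases before the RefSeq start (GRCh38.p14, chr1:22143098-22143347, minus strand, read 5′ to 3′) fall inside the span of the annotated gene, in none of its GENCODE exons. Capitals mark matches to the NF-κB consensus, which was searched on both strands. NF-κB is the transcription factor classically activated by TNF-α.

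WNT4: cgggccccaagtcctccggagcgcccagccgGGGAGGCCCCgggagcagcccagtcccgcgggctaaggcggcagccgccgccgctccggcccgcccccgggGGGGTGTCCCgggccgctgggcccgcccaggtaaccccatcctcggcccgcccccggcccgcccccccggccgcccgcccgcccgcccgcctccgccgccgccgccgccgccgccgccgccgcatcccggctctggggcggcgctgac

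The stretches around the matches of the other ligands are given with 10 bases on either side of the match on the gene's own strand, from chr3:13880244-13880273 (minus strand) for WNT7A and chr2:218880725-218880754 (plus strand) for WNT10A.

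WNT7A: ggagcagggaGGGGGCCCCCgggagcgcgc
WNT10A: ggggggcctcGGGAAATTCCCcggacccct

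The matches of WNT4 lay at 2 positions, 219 to 210 and 148 to 139 bases before the start, and that of WNT7A lay 192 to 183 bases before it, each on both strands. WNT10A had overlapping matches, 117 to 108 bases before the start on its own strand and 116 to 107 on the opposite one. All 250 bases of the WNT10A, DKK1, WNT5A, WNT5B and LEF1 windows lie in exons that GENCODE annotates for these or other genes. So do 167 bases of the LGR4 window and 50 of the WNT7A window. The windows of DKK1 and LGR4 lie before the annotated span of their own gene, so those exons belong to other genes. The other windows named here lie wholly or partly inside the span of their gene, so they are not upstream of every annotated transcript. Of 35116 promoters of 250 bases in the RefSeq table, 9.96% held such a match. The 3 windows are rich in G and C (86.8% in WNT4, 80.4% in WNT7A and 77.6% in WNT10A, against a median of 58.0%), and of the 3555 promoters with at least 75% G and C, 16.9% held one. The core of TCF/LEF sites (searched on either strand as the letters CTTTGAA or the letters CTTTGAT or the letters CTTTGTA or the letters CTTTGTT) was present in 11.96% of all promoters and, among the 8 members with a sequence in the table, in DKK1 alone, with 2 matches at 95 to 89 and 76 to 70 bases before the start. The other windows, those of WNT5A, WNT5B, LEF1 and LGR4, held neither motif, with the first start listed taken for each gene. A match of letters is a description of the window and not of binding.

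WNT4 had 0.434, 0.489 and 0.473 FPKM in the 3 medium libraries, from 68, 71 and 70 reads. It had 1.87, 1.53 and 1.83 FPKM in TNFa (311, 216 and 309 reads). In Bufotenidine it had 3.61, 2.98 and 3.75 FPKM (575, 480 and 610 reads). In si it had 11.1, 10.002 and 9.07 FPKM (1805, 1633 and 1497 reads). Every library of a group was above every library of the group before it, so that no neighbouring groups overlapped. The same order without overlap was found in 0.548% of the 18079 genes tested, and the weaker condition that the group means rise in that order in 7.96%. These shares are background only, since the order is what brought WNT4 into the set.

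The group means of WNT4 were 0.465 ± 0.0285 FPKM in medium, 1.74 ± 0.187 in TNFa, 3.45 ± 0.406 in Bufotenidine and 10.04 ± 0.990 in si (SD, n = 3 each). On the log2(FPKM + 0.1) scale TNFa lay above medium by 1.70, corresponding to a ratio of means of 3.75. Bufotenidine lay above TNFa by 0.94, a ratio of 1.98. The si group lay above TNFa by 2.46, a ratio of 5.76, and above Bufotenidine by 1.52, a ratio of 2.91. Without si replicate 2 the difference between si and TNFa was again 2.46. An antisense transcript, AL445253.1, shares 55 exon bases, or 1.22% of those of WNT4, and had a mean of 0.571 FPKM over the libraries. Whether the reads were counted by strand is not given in the sources used here.

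**Figure D1:**
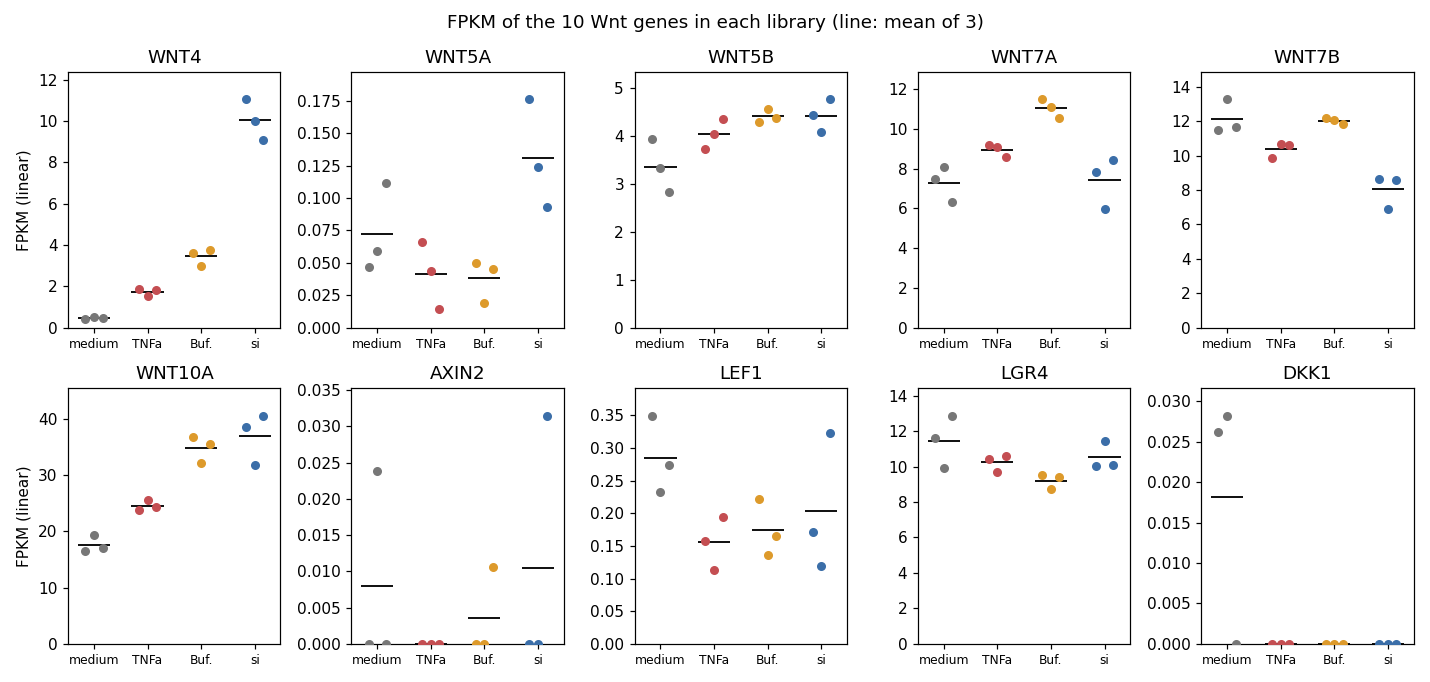
FPKM of each of the 10 genes in the 12 libraries, with linear axes that differ between panels, 1 point per library and a line at the mean of the 3 libraries of a group (Buf. stands for Bufotenidine). The points of WNT4 step upward from 0.465 FPKM on average in medium to 10.04 in si without overlap, those of WNT10A step upward as far as Bufotenidine, and AXIN2 and DKK1 lie at or near 0.

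WNT10A, a ligand prominent in skin and tooth development, was the most abundant Wnt ligand of these cells in every group. It measured 16.4, 19.3 and 17.0 FPKM in medium and 23.9, 25.6 and 24.3 in TNFa. It measured 36.7, 32.2 and 35.5 FPKM in Bufotenidine and 38.5, 31.7 and 40.6 in si. The first 3 groups did not overlap with their neighbours, while Bufotenidine and si overlapped, the lowest value of si being that of replicate 2. The share of all genes without overlap between a given pair of groups was not counted. Such separations are therefore descriptions, here and for the members below. WNT10A rose with TNF-α by 0.49 ± 0.096 on the log2 scale (SE, adjusted p = 0.0118), a call that was lost without medium replicate 1 (adjusted p = 0.0559) or TNFa replicate 2 (adjusted p = 0.0569). Between Bufotenidine and TNFa the difference was of the same size, 0.50 ± 0.096, yet missed the threshold with adjusted p = 0.0754 over all genes. It passed in fits without medium replicate 2 (adjusted p = 0.0448) or si replicate 2 (adjusted p = 0.0261), 2 libraries that this comparison does not contain and that enter its fit through the shared estimate of the spread. WNT10A was higher in si than in TNFa by 0.58 ± 0.096 (adjusted p = 0.00160) and by 0.68 without si replicate 2. Between si and Bufotenidine it differed by 0.08 (95% interval -0.13 to 0.29, adjusted p = 0.626).

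WNT7A and WNT7B, closely related ligands of epithelia, were next in abundance in most groups and had a different profile. WNT7A had 7.46, 8.10 and 6.33 FPKM in medium, 9.17, 9.07 and 8.57 in TNFa, 11.5, 11.1 and 10.5 in Bufotenidine, and 7.84, 5.99 and 8.42 in si. WNT7B had 11.5, 13.3 and 11.7 FPKM in medium, 9.89, 10.7 and 10.6 in TNFa, 12.2, 12.1 and 11.8 in Bufotenidine, and 8.67, 6.90 and 8.58 in si. For both genes every si library was below every Bufotenidine and TNFa library, a description for which the share of all genes was not counted. WNT7A was lower in si than in Bufotenidine by 0.58 on the log2 scale, a log2 fold change of -0.58 ± 0.12 (SE, adjusted p = 0.00852). WNT7B gave -0.58 ± 0.092 in the same comparison (adjusted p = 0.00183). Replicate 2 of si held the lowest value of both genes, and without it the differences were -0.44 (adjusted p = 0.0184) and -0.48 (adjusted p = 0.00318).

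Against TNFa, WNT7B was lower in si with a log2 fold change of -0.37 ± 0.092 (adjusted p = 0.0157), a call that was lost without TNFa replicate 2 (adjusted p = 0.0587) or TNFa replicate 3 (adjusted p = 0.0519) and held without si replicate 2 (-0.27, adjusted p = 0.0314). The call of WNT7B was also lost with only the 2 groups fitted (adjusted p = 0.0664). For WNT7A the log2 fold change in this comparison was -0.28 (95% interval -0.54 to -0.02, adjusted p = 0.137). TNF-α against medium gave 0.30 for WNT7A (adjusted p = 0.259) and -0.22 for WNT7B (adjusted p = 0.270), and Bufotenidine against TNFa gave 0.30 (adjusted p = 0.199) and 0.21 (adjusted p = 0.231). These 4 differences missed the threshold over all genes.

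WNT5B and WNT5A are paralogous ligands of the branch that works without β-catenin. WNT5B ranged from 2.82 to 3.93 FPKM in medium, from 3.72 to 4.35 in TNFa, from 4.29 to 4.56 in Bufotenidine and from 4.08 to 4.77 in si. Its group means of 3.36, 4.04, 4.41 and 4.43 FPKM stand in the order of WNT4, but all neighbouring groups overlapped and the log2 fold change against medium was 0.27 (adjusted p = 0.290). WNT5A was scarce, with 12, 14 and 27 reads in medium, 18, 10 and 4 in TNFa, 13, 5 and 12 in Bufotenidine, and 47, 33 and 25 in si. The si libraries were above those of both other TNF-α groups and overlapped with medium. In a fit without the filter on low values, which WNT5A does not pass, si against TNFa gave 0.71 (adjusted p = 0.0934) and si against Bufotenidine 0.73 (adjusted p = 0.0912), and the exact two-sided permutation test gave p = 0.1 for each, the smallest that 3 against 3 libraries allow. With voom on recovered reads these differences were 1.79 (adjusted p = 0.0411) and 1.81 (adjusted p = 0.0419), which passed the threshold. Over the alternatives tried on all libraries they ran from 0.12 to 1.79 and from 0.12 to 1.81, with the lowest values at a pseudocount of 1.

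**Figure D2:**
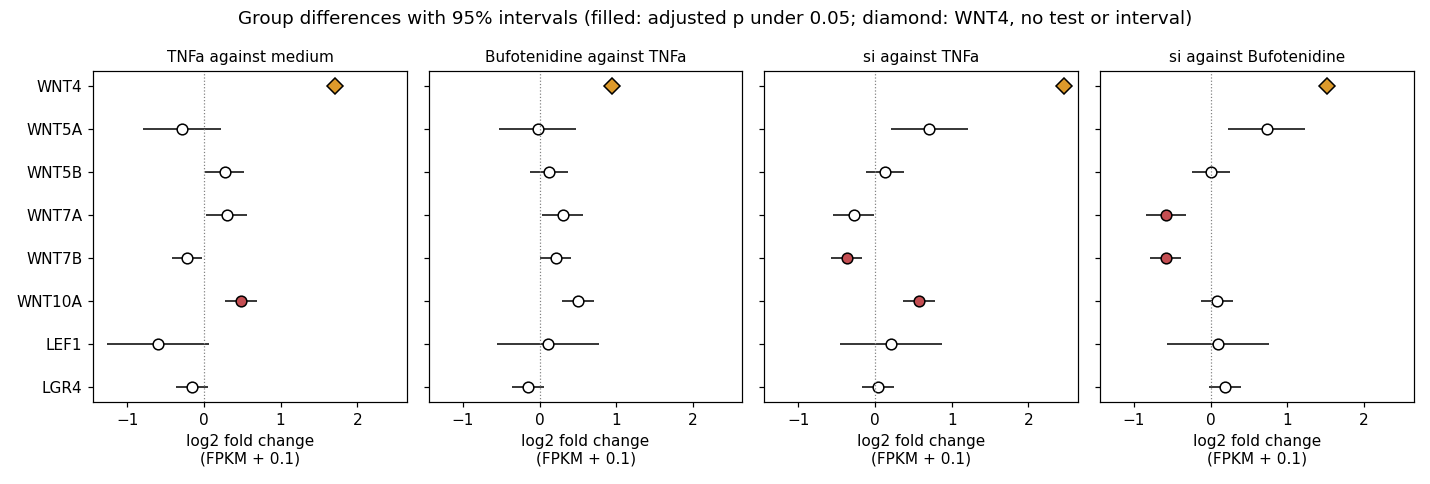
Differences between groups for the 8 genes that were measurable, as log2 fold changes of FPKM + 0.1 (horizontal axis) with 95% intervals from the limma fit for all but WNT4, in 1 panel per comparison; filled circles have an adjusted p under 0.05 and the diamond is WNT4, which was not tested. The diamond stands between 0.94 and 2.46 in the 4 panels, and WNT10A is filled at 0.49 and 0.58. On the left, WNT7B is filled at -0.37 in si against TNFa, and WNT7A and WNT7B are filled at -0.58 in si against Bufotenidine.

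The members that act on the receiving side showed no change that passed the test. LGR4, a receptor for R-spondins, ranged from 9.91 to 12.9 FPKM in medium, from 9.71 to 10.6 in TNFa, from 8.73 to 9.496 in Bufotenidine and from 10.1 to 11.5 in si. Its log2 fold changes lay between -0.15 and 0.19 in the 4 comparisons, with adjusted p of at least 0.199. LEF1, a transcription factor that binds DNA with β-catenin, had 65, 40 and 48 reads in medium, 31, 19 and 39 in TNFa, 42, 26 and 32 in Bufotenidine, and 33, 23 and 63 in si. All medium libraries were above all TNFa libraries, but the log2 fold change of -0.59 had a 95% interval from -1.26 to 0.07 (adjusted p = 0.410).

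AXIN2, a scaffold of the destruction complex whose transcript is a widely used readout of β-catenin signalling, was almost undetected. It had 4 reads in medium replicate 2, 2 in Bufotenidine replicate 3 and 6 in si replicate 3, and 0 in the other 9 libraries. DKK1, a secreted antagonist that binds LRP co-receptors, had 2 reads in each of 2 medium libraries and 0 in the other 10. With group sums of at most 6 reads, no difference in either gene was detectable at this depth and no fold is given. AXIN2 shares 1316 exon bases with AC004805.1 on the same strand, a gene listed at 0 in all libraries, so reads on the shared part cannot be told apart.

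Of the 9 members other than WNT4, 6 passed the filter on low values, a mean of 0.1 FPKM or more. With TNF-α 1 of these 6 was called higher, WNT10A, and 0 lower, while 3.22% of all genes tested were called higher and 0.885% lower. Between Bufotenidine and TNFa limma called 0 of the 6, and 0.0332% of all genes were called higher and 0.00553% lower. The genes called in this comparison numbered 7 in all, but 571 without si replicate 2 and 155 without medium replicate 2. At an unadjusted p under 0.05 there were 3 of the 6 and 20.1% of all genes. In si against TNFa 1 was called higher (WNT10A) and 1 lower (WNT7B), with 9.35% and 8.08% of all genes called in these directions. In si against Bufotenidine 0 were called higher and 2 lower (WNT7A and WNT7B), with 7.85% and 7.43% of all genes. The 3 comparisons with TNFa share its libraries.

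The 19 human Wnt ligands give the setting in which WNT4 was measured. Of these, 11 passed the filter, 4 more had reads in some libraries, and WNT1, WNT2, WNT8A and WNT9B were listed at 0 in all 12. The summed FPKM of the ligands was 49.8 ± 3.95 in medium, 57.8 ± 2.05 in TNFa, 74.5 ± 3.22 in Bufotenidine and 74.8 ± 7.95 in si (SD, n = 3 each). WNT4 made up 0.937% ± 0.0769 of this sum in medium and 3.03% ± 0.407 in TNFa. It made up 4.62% ± 0.444 in Bufotenidine and 13.5% ± 1.96 in si. WNT10A made up 35.3% in medium, 42.5% in TNFa, 46.7% in Bufotenidine and 49.3% in si. By mean FPKM, WNT4 was the ligand of rank 9 in medium, 7 in TNFa, 6 in Bufotenidine and 2 in si, where it stood at 10.04 FPKM beside 8.05 for WNT7B. In si replicate 2 the sum was 65.6 FPKM, below the 79.1 and 79.6 of the other 2 si libraries, while the share of WNT4 was the highest of the 12 at 15.2%.

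**Figure D3:**
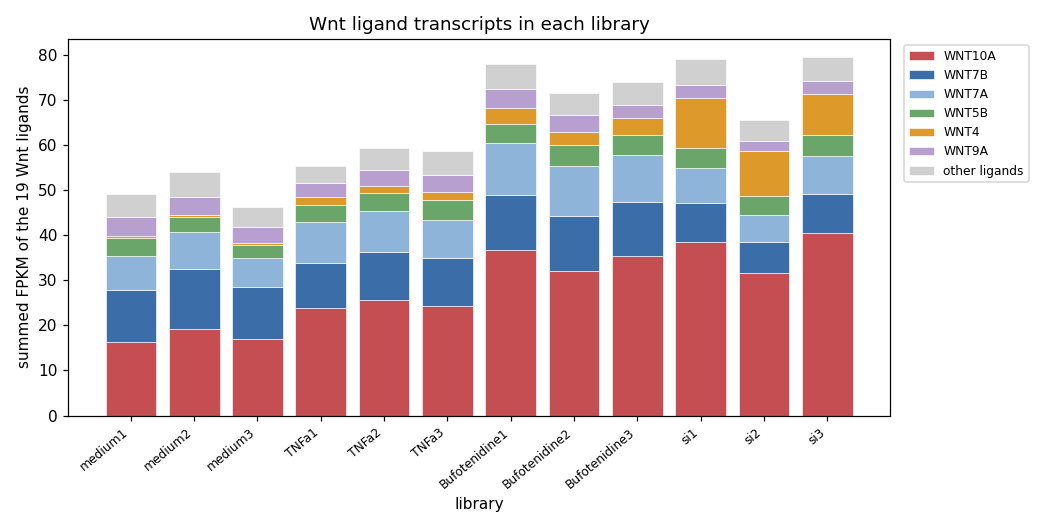
Summed FPKM of the 19 Wnt ligands in each library (vertical axis), stacked by ligand, with the 6 most abundant ligands over all libraries in colours of their own and the others in grey. The WNT10A segment is the largest in every library, and the WNT4 segment grows from 0.937% of the column on average in medium to 13.5% in si.

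A list of 104 Wnt pathway genes, WNT4 included, was examined by role. Apart from WNT4, 73 passed the filter and 13 were listed at 0 in all libraries. With TNF-α 9 of the 73 were called higher (12.3%, beside 3.22% of all genes tested) and 0 lower (0.885% of all genes), and the median log2 fold change of the 73 was -0.029 beside -0.002 for all genes tested. The 9 were spread over the roles: WNT10A among the ligands, the receptor FZD8, the destruction complex members GSK3B and CSNK1E with β-catenin itself (CTNNB1), the co-repressor TLE4, and SOX9, CCND1 and CD44 among genes known as targets. Of these, CD44 (limma, adjusted p = 0.0489) and CSNK1E (adjusted p = 0.0439) lay close to the threshold. In the fits that left out 1 library, CD44 kept its call only without si replicate 2. CSNK1E kept its call only without medium replicate 2, Bufotenidine replicate 3 or si replicate 2. Among the 9, the 3 with the highest fold at a level of at least 1 FPKM were TLE4, SOX9 and GSK3B. TLE4, a Groucho-type co-repressor that TCF factors recruit, had 1.25, 1.16 and 1.14 FPKM in medium and 2.05, 2.33 and 2.17 in TNFa, a rise of 0.83 ± 0.10 (SE, adjusted p = 0.000468). SOX9, a transcription factor of crypt progenitors, rose by 0.71 ± 0.088 (adjusted p = 0.000457). GSK3B, the kinase that marks β-catenin for degradation, rose by 0.67 ± 0.087 (adjusted p = 0.000656). MYC, also known as a target, measured 46.6 ± 3.88 FPKM in medium and 45.8 ± 3.80 in TNFa, and LGR5 was listed at 0 in all libraries.

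Bufotenidine against TNFa gave 0 calls by limma among the 73. At an unadjusted p under 0.05 there were 18, where 20.1% of all genes tested lay under that value, and the 73 had a median log2 fold change of 0.091 beside 0 for all genes. Of the 10 ligands tested other than WNT4, 9 had a log2 fold change above 0, as did 49 of the 73 pathway genes. The share of all genes above 0 was not counted, so the 9 are a description only. For 3 of the 10 ligands the unadjusted limma p was under 0.05, to be read against the same 20.1%.

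In si against TNFa 10 of the 73 were called higher (13.7%, beside 9.35% of all genes) and 5 lower (6.85%, beside 8.08%), with a median of 0.13 beside -0.003 for all genes. TLE4 was again the most raised of the genes above 1 FPKM, by 0.82 ± 0.10 (adjusted p = 0.000240). PTK7, a receptor-like protein of the planar polarity branch, rose by 0.53 ± 0.11 (adjusted p = 0.00533). TLE2, a relative of TLE4, gave 0.65 ± 0.20 (adjusted p = 0.0458). However, 9 of the 12 fits that left out 1 library lost the call (adjusted p 0.0116 to 0.171 over the 12). The 3 that kept it were those without medium replicate 2, medium replicate 3 or si replicate 2. Of the 10 alternatives on all libraries, 5 kept it. TNFRSF19, known as a target of β-catenin, had 1.61, 1.43 and 1.63 FPKM in TNFa and 0.705, 0.748 and 0.816 in si, which gave -0.95 ± 0.12 on the log2 scale (adjusted p = 0.000240). The secreted antagonist SFRP1 gave -0.51 ± 0.076 (adjusted p = 0.000840). The receptor FZD2 gave -0.34 ± 0.091 (adjusted p = 0.0246). Its call was lost without TNFa replicate 2 (adjusted p = 0.0561) or TNFa replicate 3 (adjusted p = 0.0906). It was also lost with eBayes without a trend or with only the 2 groups fitted (adjusted p up to 0.0967). By role, the calls were 1 higher and 1 lower of the 10 ligands, 3 higher and 2 lower of the 15 receptors, 1 higher and 1 lower of the 4 secreted antagonists, 1 higher of the 15 genes around the destruction complex, 2 higher of the 13 nuclear factors, and 2 higher and 1 lower of the 15 known targets.

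In si against Bufotenidine 4 of the 73 were called higher (5.48%, beside 7.85% of all genes) and 7 lower (9.59%, beside 7.43%), with a median of 0.012 beside 0.010 for all genes. TLE4 rose by 0.53 ± 0.10 (adjusted p = 0.00622) and SOX9 by 0.41 ± 0.088 (adjusted p = 0.00976). TNKS2, a tankyrase that destabilises AXIN, gave 0.50 ± 0.12 (adjusted p = 0.0211). It lost the call without Bufotenidine replicate 1 (adjusted p = 0.0649) or replicate 2 (adjusted p = 0.0765). The same held without si replicate 1 (adjusted p = 0.0757) or replicate 2 (adjusted p = 0.0738). With only the 2 groups fitted the call was also lost (adjusted p = 0.0558). PORCN, the acyltransferase that lipidates Wnt ligands, had 10.9, 11.1 and 11.3 FPKM in Bufotenidine and 7.72, 5.64 and 8.56 in si. Its log2 fold change was -0.62 ± 0.13 (adjusted p = 0.0106), and -0.44 without si replicate 2 (adjusted p = 0.0180), and the call was lost with only the 2 groups fitted (adjusted p = 0.0531). TNFRSF19 gave -0.60 ± 0.12 (adjusted p = 0.00635) and FZD2 -0.52 ± 0.091 (adjusted p = 0.00352). The ligands called lower were WNT7A and WNT7B.

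**Figure D4:**
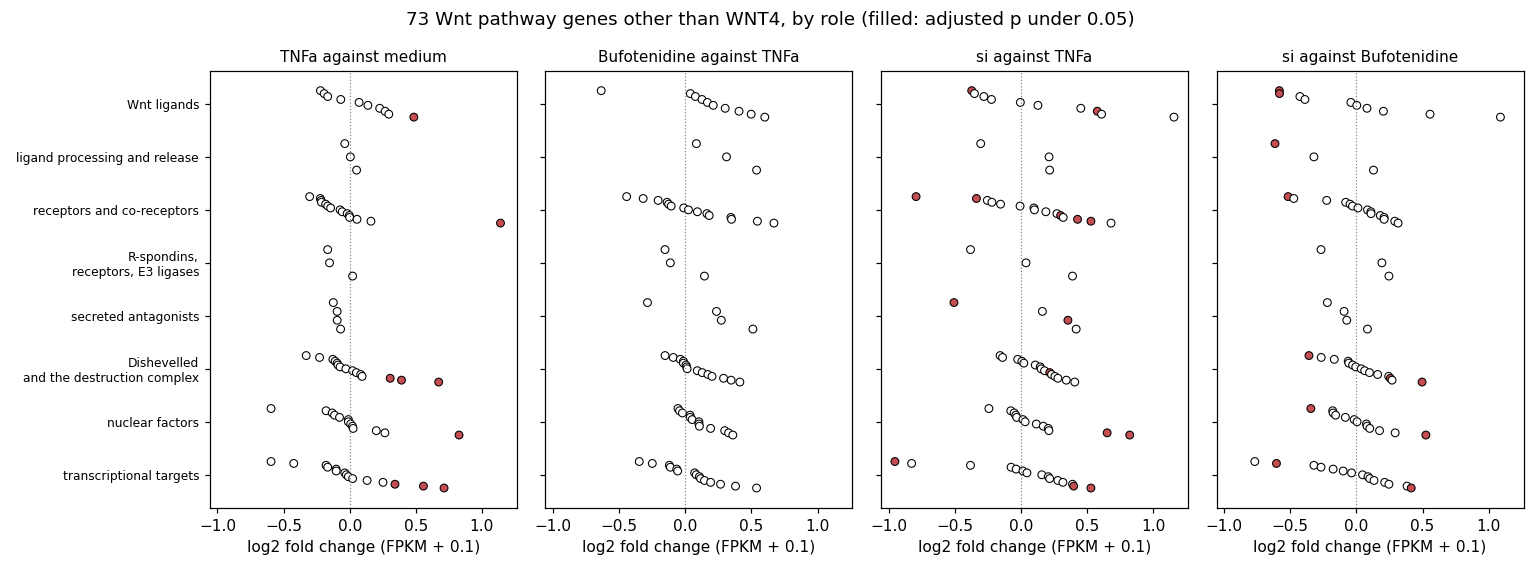
Log2 fold changes of FPKM + 0.1 (horizontal axis) for the 73 Wnt pathway genes other than WNT4 that passed the filter, 1 circle per gene, arranged by role and in 1 panel per comparison, with filled circles for an adjusted p under 0.05 and genes of 2 roles drawn in both. Filled circles lie to the right alone with TNF-α (9 genes), are absent for Bufotenidine against TNFa, and lie on both sides in the comparisons of si.

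The order of WNT4 across the 4 groups was compared with that of the other pathway genes as a description. Of the 73, 11 had group means rising in the same order, AXIN1, CD44, RNF43, SOX9, TLE1, TLE4, WLS, WNT10A, WNT11, WNT5B and WNT6, beside 7.96% of all genes tested. TLE4 alone of the 73, beside 0.548% of all genes, did so without overlap between neighbouring groups, with 2.53, 2.55 and 3.06 FPKM in Bufotenidine and 4.07, 3.67 and 4.08 in si. The Pearson correlation with WNT4 of log2(FPKM + 0.1) over the 12 libraries was taken for pathway genes of at least 1 FPKM on average. It ran in both directions. The 4 highest values were 0.982 for TLE4, 0.958 for SOX9, 0.935 for CTNNB1 and 0.930 for WNT10A. The 4 lowest were -0.917 for SFRP1, -0.752 for ZNRF3, -0.732 for FZD2 and -0.725 for TNFRSF19. These libraries form 4 groups, so the coefficients mostly restate the group means.

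Among the 2054 genes with a mean of at least 1 FPKM and a log2 range of at least 1, the 5 whose levels were most like those of WNT4 by Pearson correlation were FBXO32 (0.994), TRANK1 (0.992), PSMB9 (0.990), GBP1 (0.990) and ADGRF4 (0.989). FBXO32 encodes an F-box protein of a ubiquitin ligase, PSMB9 an immunoproteasome subunit, GBP1 an interferon-inducible GTPase and ADGRF4 an adhesion G protein-coupled receptor. GBP1 had group means of 2.75, 9.54, 12.8 and 32.4 FPKM in the order medium, TNFa, Bufotenidine and si, and FBXO32 had 4.95, 9.74, 13.2 and 20.9. In all, 305 of the 2054 candidates had a coefficient above 0.9, WNT10A standing at rank 206. By Spearman correlation only FBXO32 remained among the first 5.

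**Figure D5:**
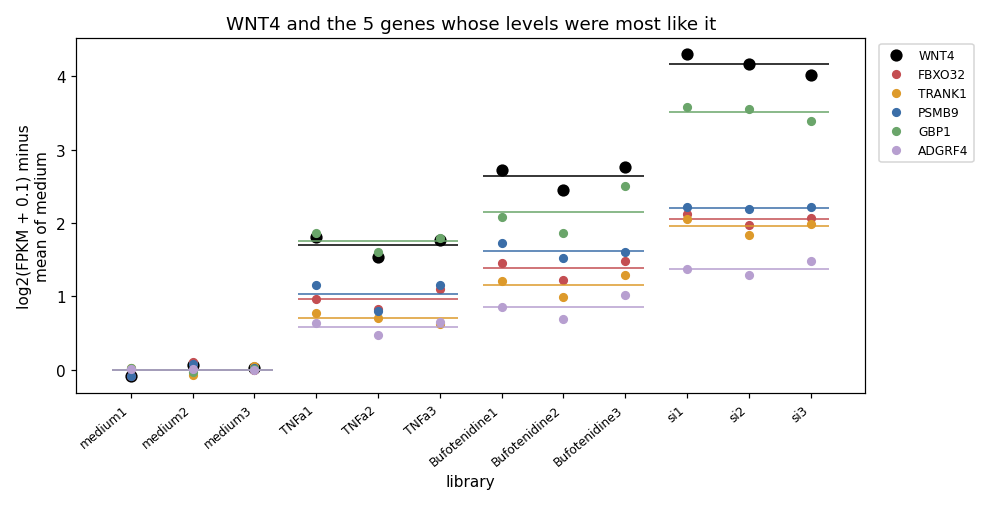
Levels of WNT4 and of the 5 genes most like it in the 12 libraries, as log2(FPKM + 0.1) minus the mean of the medium libraries (vertical axis), with 1 point per library and a line at each group mean. All 6 genes step upward from medium to si, with WNT4 highest in Bufotenidine and si and the lowest steps in ADGRF4.

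Markers of other cell types were set beside these levels. The 3 endothelial markers summed to between 0.491 and 0.597 FPKM in medium, 1.42 and 1.57 in TNFa, 1.77 and 2.01 in Bufotenidine, and 2.21 and 3.62 in si. Most of this was CDH5, with means of 0.335, 1.32, 1.65 and 2.79 FPKM, while PECAM1 never exceeded 0.182 and VWF 0.106. The part of CDH5 was smallest in medium, where PECAM1 had a mean of 0.148 FPKM and VWF 0.0778. Of the leukocyte markers, PTPRC had at most 4 reads in any library, CD3E was at 0 throughout, and CD14 and CD68 reached at most 0.727 and 0.0879 FPKM. The 6 mesenchymal markers summed to between 4.18 and 6.23 FPKM over the 12 libraries, with means in the order of the groups of 4.63, 4.59, 3.00 and 1.37 for VIM and of 1.04, 1.17, 1.33 and 2.89 for COL1A1, and with PDGFRA and PDGFRB at no more than 6 reads. The sum of KRT5, KRT14 and TP63 was between 160.1 and 191 FPKM in the first 3 groups and between 195 and 238 in si. KRT5 held most of this sum, with means of 125 FPKM in medium and 166 in si, while TP63 had means of 13.3, 12.7, 11.1 and 9.87 FPKM in the order of the groups. Whether these markers have a part in the order of WNT4 was not tested.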

How the data were processed

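RNA of 12 NCM460 libraries in 4 groups was measured by the study with poly(A) selection and an NEBNext Ultra kit. The values deposited by the authors are FPKM, in a single table that also gives gene lengths. The submitters' processing notes list CASAVA 1.8, HISAT2 2.0.4, HTSeq 0.9.1 and hg38. The annotation and the strandedness of counting are not given in the sources used here. All 58735 gene identifiers were found in GENCODE 29, and 99.98% had the same start and end.

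FPKM were multiplied by gene length and divided by the smallest step of each library, which gave whole reads (tolerance 0.1) for 100% of values. These reads show depth, and depth limits genes with few reads. The 3-read floor covers counting error only. Groups and replicates followed the sample titles.

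In R 4.3.3 with limma 3.58.1, a model with a mean for each group was fitted to log2(FPKM + 0.1), on 18079 genes that averaged 0.1 FPKM or more, using eBayes with a trend and 8 residual degrees of freedom. Tests were two-sided, with Benjamini-Hochberg adjustment over all genes tested and a threshold of 0.05. WNT5A was taken from a fit of the 31951 genes above 0 in a library. Besides the members, genes above 1 FPKM were named by the 3 largest called rises and falls per comparison among the other genes of the pathway list. The code was tested on simulated data. One leukocyte marker is not reported here. Members, lists and the order of groups were chosen with earlier results of these data known. Promoters came from RefSeq (GRCh38.p14), where 8 of 10 members matched. Alternatives covered the pseudocount, filter, scaling, variance model, samples fitted, recovered reads with voom, and leaving out each library.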

Additional observations from a re-analysis of the deposited data

How the results depend on the processing

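Depth limits AXIN2, DKK1, WNT5A and LEF1, and a pseudocount of 1 lowered the log2 fold change of WNT4 with TNF-α from 1.70 to 0.90. Same-numbered libraries did not deviate together (correlations of deviations from the group means between -0.052 and 0.038 over 12 pairs). These values cannot show whether such libraries were prepared together, which the labels do not give. With the replicate block, the pathway genes called were 7 with TNF-α, 0 for Bufotenidine against TNFa, 11 for si against TNFa and 10 for si against Bufotenidine, and the members called were 1, 0, 2 and 2.

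Calls for Bufotenidine against TNFa depended most on the setting. Over all genes, 7 were called, against 127 at a mean FPKM of at least 1, 236 with voom on recovered reads, 911 with only the 2 groups fitted and 1 with the replicate block. Without si replicate 2 they numbered 571 and without medium replicate 2 155, so the share of all genes called in this comparison rests on the libraries fitted. Of the members, a mean FPKM of at least 1 called 1 (WNT10A), voom 1 (WNT10A) and the fit of only 2 groups 2 (WNT10A and WNT7A). Of the pathway genes these settings called 1, 1 and 5. For si against TNFa, the fit of only 2 groups called 1 member and 7 pathway genes in place of 2 and 15. Leaving out 1 library gave 0 to 1 members and 6 to 10 pathway genes with TNF-α. For Bufotenidine against TNFa it gave 0 to 1 members and 0 to 4 pathway genes. For si against TNFa it gave 1 to 2 members and 8 to 21 pathway genes. For si against Bufotenidine it gave 7 to 12 pathway genes. In si against TNFa the lowest count of pathway genes was 8, without TNFa replicate 2, and it was 9 without si replicate 1. In si against Bufotenidine the lowest count was 7, without Bufotenidine replicate 1 or 2. For Bufotenidine against TNFa, 1 pathway gene was called without medium replicate 2 and 4 without si replicate 2. The pathway genes with means in the order of WNT4 numbered 8 to 14 without 1 library and 9 to 11 with other scalings, both chosen after seeing the data.

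No called difference changed sign. Uncalled differences near 0 did: WNT5B in si against Bufotenidine was -0.051 with quantile normalization. Without 1 library, WNT5B in si against Bufotenidine ran from -0.051 (without si replicate 3) to 0.059 (without si replicate 2), and WNT5A in Bufotenidine against TNFa from -0.17 (without TNFa replicate 3) to 0.10005 (without TNFa replicate 1). LEF1 ran from -0.016 to 0.22 in Bufotenidine against TNFa (without TNFa replicate 2 and 3), from -0.057 to 0.42 in si against TNFa and from -0.16 to 0.31 in si against Bufotenidine (without si replicate 3 and 2 in both). LGR4 in si against TNFa ran from -0.022 (without si replicate 2) to 0.072 (without si replicate 1). Of 1069 values for single genes including the 47 reported, 966 kept direction and side of the threshold. WNT4, which has no test, counts among the 966 where it kept direction and moved by less than 1 SD. A further 29 lost a call, 8 gained one, 13 changed sign and 6, all of WNT4, moved by more than 1 SD. The cause was not tested.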
